A study of Mus musculus with 12 samples.

Results

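The genes described here act in G2 phase and mitosis: 42 mouse genes for cyclins, mitotic kinases, centromere and kinetochore proteins, checkpoint proteins, spindle motors, cytokinesis proteins, chromosome proteins and the anaphase machinery. They were taken from a list of names, and a gene was measured by the probe set that the array's annotation gives its symbol alone, with the highest mean where several exist. By that rule 41 of the 42 genes were measured, each by 1 probe set, among 17749 genes tested on the arrays. Ccnb1, which encodes cyclin B1, had 0 probe sets carrying its symbol alone and has no value here. The 41 probe sets all passed the filter on dim genes, a mean log2 intensity of at least 4.72.

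The study profiled mouse acute myeloid leukemia started by MLL-AF9, an oncogenic fusion protein, with and without the energy-sensing kinase AMPK. It used 12 one-colour arrays, 3 in each of 4 groups. All groups came from C57BL/6J mice: bone marrow recipients irradiated with 10 Gy were injected with 50000 MLL-AF9 expressing progenitor and stem cells, and marrow was taken when each recipient developed leukemia. The wild-type groups carried floxed AMPK alleles (AMPK fl/fl), and the knockout groups carried deleted ones (AMPK Δ/Δ). The deleted AMPK subunit and the driver of its deletion are not named in the sources used here. Of each genotype, 5000 cells were sorted either as all GFP-positive cells (whole leukemia) or as L-GMP, the leukemic progenitors within the GFP-positive cells that bear c-Kit, CD16/32 and CD34 and lack lineage markers. The labels number the arrays of a group 1 to 3 and name no animal for any of them, so a p-value here reflects the spread between these arrays, some of which may be technical. Values are log2 of the deposited intensity, and a difference of 1 on that scale is a doubling of intensity.

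Cells commit to mitosis when CDK1, bound to cyclin A or cyclin B and freed of inhibitory phosphate by CDC25 phosphatases, becomes active together with the Aurora and Polo-like kinases. Most of the transcripts that follow accumulate in late S phase and G2 and are lost on mitotic exit, so their total in a cell population follows the share of dividing cells as well as the amount in each cell. In bulk samples such as these, fewer dividing cells and less RNA per dividing cell cannot be told apart. The periodic transcription is carried by promoters with CCAAT boxes, bound by NF-Y, and a cell cycle homology region (CHR), bound by the DREAM complex in resting cells and by the B-MYB and FOXM1 complexes in G2.

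The promoters of these genes share those letters, which the choice of members did not use. RefSeq promoters of assembly GRCm38.p6, running from 250 bases before to 50 bases after the annotated start, were held for 33 of the 42 genes. The stretches below are the 120 bases just before the start, written 5′ to 3′ on the gene's strand, with CHR letters (TTTGAA) and CCAAT letters on either strand in capitals, so that TTCAAA and ATTGG also appear. They are shown because each of them, apart from Ccnb2, has a CHR in the 40 bases before the start and a CCAAT box in the same stretch. Ccnb2 was added after its sequence was seen, for its 3 CCAAT boxes. Its CHR letters lie outside the stretch, 167 bases before the start and at position 5 after it.
Ube2c: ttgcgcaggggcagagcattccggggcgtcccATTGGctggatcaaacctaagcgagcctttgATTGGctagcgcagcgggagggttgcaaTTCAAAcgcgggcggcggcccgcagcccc
Cdc20: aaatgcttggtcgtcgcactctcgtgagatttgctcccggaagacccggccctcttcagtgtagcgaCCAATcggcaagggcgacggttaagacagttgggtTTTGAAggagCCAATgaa
Cdk1: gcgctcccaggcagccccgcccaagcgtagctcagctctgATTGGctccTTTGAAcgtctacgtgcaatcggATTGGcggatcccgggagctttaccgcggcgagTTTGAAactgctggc
Ccnb2: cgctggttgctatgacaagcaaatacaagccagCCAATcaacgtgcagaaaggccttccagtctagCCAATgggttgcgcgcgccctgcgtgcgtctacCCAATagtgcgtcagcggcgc
Kif11: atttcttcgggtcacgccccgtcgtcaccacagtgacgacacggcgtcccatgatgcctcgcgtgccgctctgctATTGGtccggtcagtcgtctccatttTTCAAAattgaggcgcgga
Prc1: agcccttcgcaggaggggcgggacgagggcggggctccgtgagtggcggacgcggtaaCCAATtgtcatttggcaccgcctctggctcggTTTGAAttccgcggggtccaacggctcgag
Top2a: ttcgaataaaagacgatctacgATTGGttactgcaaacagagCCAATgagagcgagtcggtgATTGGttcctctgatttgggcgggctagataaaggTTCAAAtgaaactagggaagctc
Espl1: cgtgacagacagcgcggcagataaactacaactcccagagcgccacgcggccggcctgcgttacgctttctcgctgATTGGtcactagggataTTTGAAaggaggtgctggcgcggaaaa

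These stretches lie at chr2:164769809-164769928 on the plus strand (Ube2c), chr4:118437344-118437463 on the minus strand (Cdc20), chr10:69352913-69353032 on the minus strand (Cdk1), chr9:70421555-70421674 on the minus strand (Ccnb2), chr19:37376262-37376381 on the plus strand (Kif11), chr7:80294356-80294475 on the plus strand (Prc1), chr11:99024190-99024309 on the minus strand (Top2a) and chr15:102296173-102296292 on the plus strand (Espl1). In Ube2c, which encodes the ubiquitin-conjugating enzyme of the anaphase-promoting complex, CCAAT letters began 88 and 57 bases before the start and the CHR 29 bases before it. In Ccnb2, which encodes cyclin B2, CCAAT letters began 87, 54 and 21 bases before the start. Over the whole 300 bases a CHR was found in 25 of the 33 genes, 75.8% (exact Clopper-Pearson 95% interval 57.7 to 88.9), against 20.2% of the 27025 genes with a promoter in the same table. A CHR beginning within 50 bases of the start was found in 23 of 33 genes, 69.7%, against 5.72% of all genes. CCAAT letters were present in 25 of 33 genes, 75.8% against 41.1%, and 2 or more CCAAT boxes in 17 of 33, 51.5% against 13.3%. Both elements together were found in 22 of 33 genes, 66.7%, against 7.97% of all genes.

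Many of the CHR letters lay just downstream of the annotated start, as in Plk1, Aurka, Cenpf, Ndc80, Ttk and Kif23. When the search was held to the 250 bases before the start, a CHR was found in 12 of 33 genes, 36.4% against 18.3% of all genes. The E2F letters TTTGGCGC, TTTCGCGC, TTTCCCGC and TTTGCCGC were found in 1 of 33 genes, Cdk1, 3.03% against 2.6% of all genes. None of the spellings searched contains another. A match is a match of letters only and says nothing about binding in these cells.

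**Figure D1:**
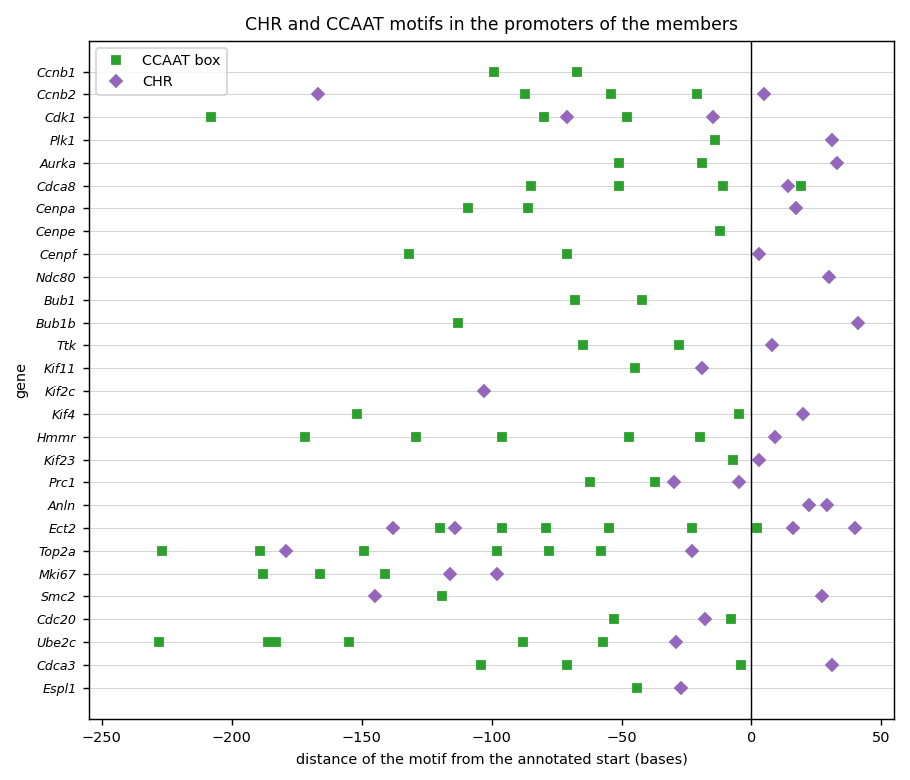
Positions of CHR (diamonds) and CCAAT (squares) letters in the RefSeq promoters of the genes with at least 1 match, in bases from the annotated start (vertical line), on either strand; where a gene has more than 1 promoter entry all are drawn. CHR letters cluster near the start, 26 of 35 within 50 bases of it, and CCAAT letters lie farther upstream, with a median position of -71. Ect2 and Prc1 have shifted entries whose matches count in each, so these numbers hold some sites more than once.

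Facts of the whole series that touch these genes are few. Prkaa1, the AMPK catalytic subunit gene, read 8.69, 7.72 and 8.32 in wild-type whole leukemia, 7.40, 7.45 and 6.95 in knockout whole leukemia, 8.33, 7.99 and 8.12 in wild-type L-GMP and 7.31, 6.83 and 6.87 in knockout L-GMP, and within a fraction the highest knockout value was below the lowest wild-type value. Prkaa2, the other catalytic subunit gene, lay near the filter for dim genes on all arrays, from 4.66 to 5.05. Of the genes in the L-GMP gate, Kit averaged 7.0 and 7.56 in wild-type whole leukemia and L-GMP and 7.50 and 8.64 in the knockout, and Cd34 averaged 8.74 and 9.76 in the wild type and 6.41 and 9.67 in the knockout. The other 4 genes of that marker list, the CD16/32 genes Fcgr3 and Fcgr2b with Ptprc and Itgam, had a lower mean in L-GMP in the wild type, and the median difference of all 6 was -0.15. Median intensities of the arrays lay between 36.9 and 39.3. Knockout whole leukemia array 2 stood apart from the rest on the first principal component, at 67.4 against -24.2 to 18.5 for the other arrays. Medians over the measured G2/M and mitosis genes are given with and without it where the comparison uses it. The SDs, the ranges and the differences of single genes are given with it.

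In L-GMP, all 41 G2/M and mitosis genes had a lower mean in the knockout than in the wild type, and none passed the test. The differences ran from -0.90 for Cenpe to -0.06 for Bub1b, with a median of -0.45, against a median of 0.02 over all genes tested, of which 45.2% were lower in the knockout. By limma with Benjamini-Hochberg adjustment over all 17749 genes, 0 of the 41 were called, a threshold that 0.00563% of all genes passed; at an unadjusted p under 0.05 the count was 1 of 41, Smc4, against 4.13% of all genes. In 2 of 41 genes, Dlgap5 and Smc4, all knockout arrays lay below all wild-type arrays, against 3.66% of all genes, and no gene of the list had the reverse order, against 5.82%. Both the median and that count rest on single arrays: without knockout L-GMP array 3 the median was -0.01, with 21 of 41 genes lower, and without array 2 it was -0.87, with 6 of 41 at an unadjusted p under 0.05. Without both knockout arrays numbered 2 that last count was 22 of 41, with 0 called. In fits other than the main one, here and below, the share of all genes at that p is not given. Such counts therefore cannot be read as an excess over all genes.

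In whole leukemia the genotype means lay closer together with all arrays in the fit, but not without knockout array 2. The knockout mean was lower for 32 of 41 genes, against 50.4% of all genes tested, with differences from -0.57 (Kif2c) to 0.31 (Mki67) and a median of -0.13. None of the 41 was called by limma (0% of all genes were), and 0 of 41 had an unadjusted p under 0.05, against 5.97% of all genes. Kif2c was the 1 gene of 41 whose knockout arrays all lay below the wild type, against 5.73% of all genes, and 0 of 41 lay wholly above, against 5.46%. The median was -0.64 without knockout array 2 and 0.35 without knockout array 3, when 5 of 41 genes were lower. Without both knockout arrays numbered 2, 7 of 41 had an unadjusted p under 0.05, and with array weights 6 of 41, with 0 called in each. The shares of all genes at that p in these fits are not given.

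**Figure D2:**
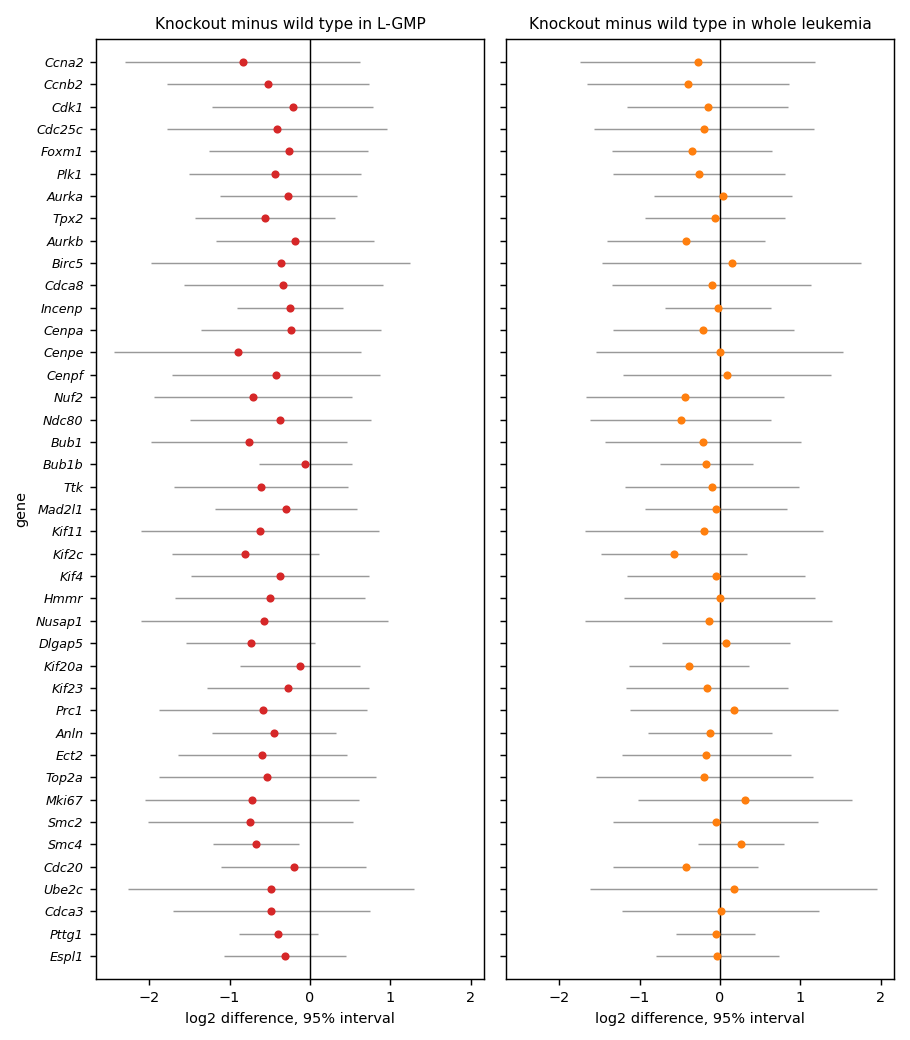
Knockout minus wild-type log2 intensity of each of the 41 genes in L-GMP (left) and whole leukemia (right), with limma's unadjusted 95% interval (3 arrays against 3, spread shared over 12 arrays). All 41 points in L-GMP lie below 0, and the interval of Smc4 alone does not reach 0; in whole leukemia every interval spans 0.

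The wide intervals came from the knockout arrays themselves, which differed among each other far more than the wild-type ones. The median SD of the 41 genes was 0.17 in wild-type and 0.89 in knockout whole leukemia, and 0.30 in wild-type and 0.87 in knockout L-GMP. Over all genes tested the median SDs of these 4 groups were 0.13, 0.19, 0.15 and 0.16. The knockout SD was the larger for 40 of 41 genes in each fraction, against 64.7% of all genes in whole leukemia and 51.8% in L-GMP; the exceptions were Smc4 in whole leukemia and Bub1b in L-GMP. The difference in spread is a description of 3 arrays a group and was not tested.

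**Figure D3:**
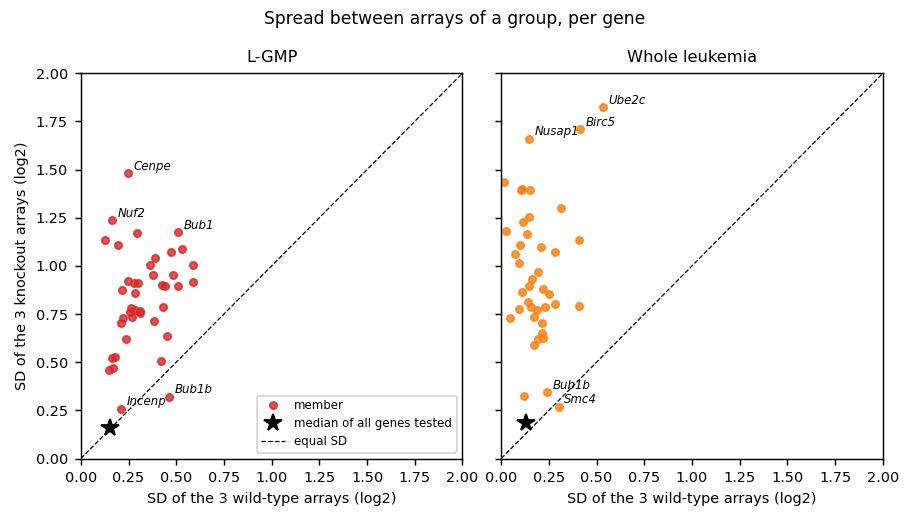
SD of log2 intensity over the 3 knockout arrays (vertical axis) against the SD over the 3 wild-type arrays (horizontal axis) for each of the 41 genes, in L-GMP (left) and whole leukemia (right); the star is the median of all genes tested and the dashed line marks equal SD. Nearly all points lie above the line, with knockout SDs up to 1.48 (Cenpe) in L-GMP and 1.82 (Ube2c) in whole leukemia.

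The spread had the same shape in both fractions. Averaged over the 41 genes, the knockout arrays 1, 2 and 3 read 7.64, 8.60 and 6.70 in whole leukemia and 7.59, 8.27 and 6.63 in L-GMP, against 7.61, 7.91 and 7.80 and 7.65, 8.21 and 8.03 for the wild type. Knockout array 3 was therefore low and knockout array 2 high in both fractions, and knockout array 1 lay near the wild type in whole leukemia and just under its range in L-GMP. Among the 6 L-GMP arrays, knockout array 3 was the lowest for 40 of 41 genes (all but Bub1b), against 16.1% of all genes tested. Among the 6 whole leukemia arrays, the array with that number was the lowest for 40 of 41 (all but Smc4), against 12% of all genes. Knockout array 2 was the highest of the 6 for 37 of 41 genes in whole leukemia, against 23.3% of all genes, and for 25 of 41 in L-GMP, against 19.8%.

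Gene by gene, the order of the knockout arrays, 3 below 1 below 2, held for all 41 genes in L-GMP and for 39 in whole leukemia (all but Bub1b and Ttk). Both orders together held for 39 of 41 genes and for 3.45% of all genes tested. This order was noticed in the data and is a description. For many genes below, only the values on the knockout arrays 3 are set against wild-type means. Those arrays were the low ones and do not stand for the knockout group. On the knockout arrays 2, only 5 of 41 genes in L-GMP and 2 of 41 in whole leukemia lay below the wild-type mean. Whether equally numbered arrays of a genotype come from 1 animal is not stated in the labels.

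**Figure D4:**
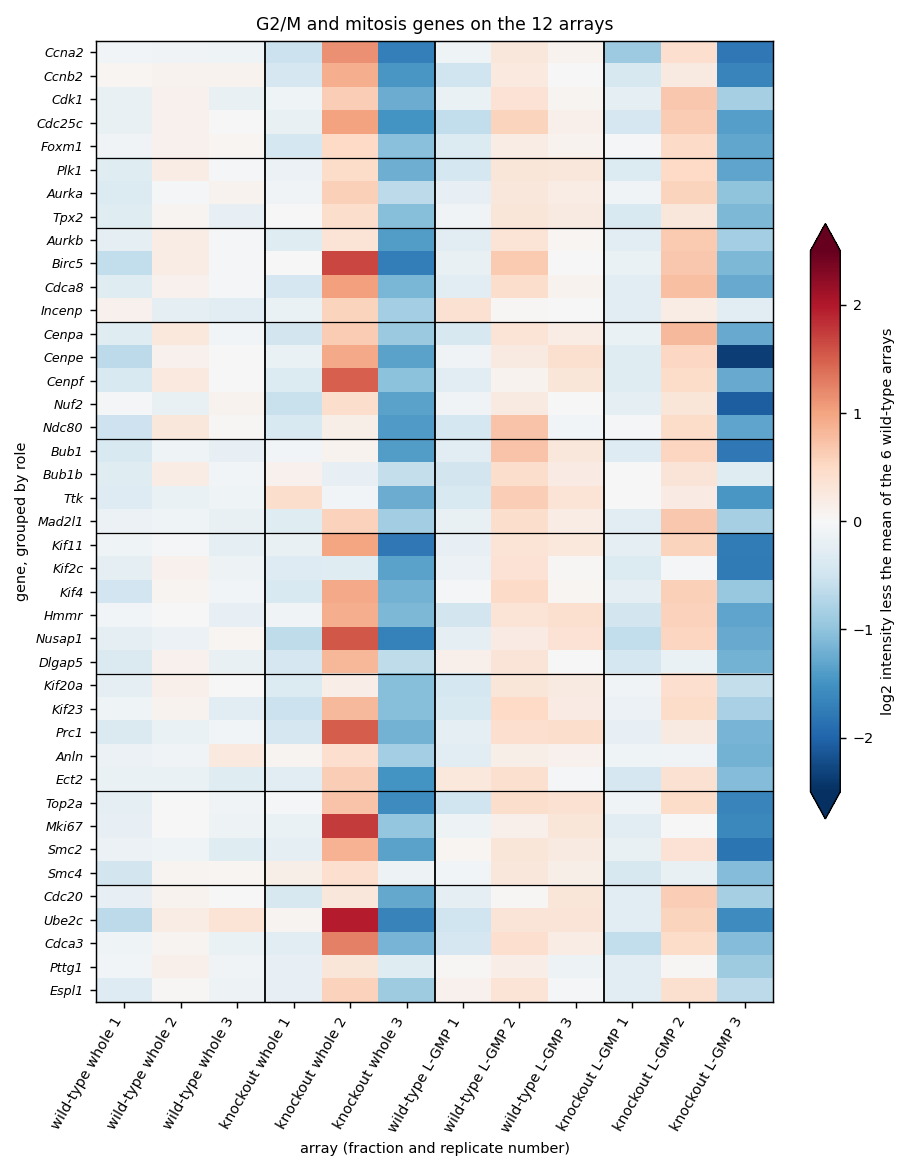
Log2 intensity of each of the 41 genes (rows, grouped by role) on each of the 12 arrays (columns), less the gene's mean over the 6 wild-type arrays; red is higher and blue lower. Knockout array 3 is blue in nearly every row of both fractions, and knockout whole leukemia array 2 is red in most rows, with Bub1b, Bub1, Ttk, Kif2c, Ndc80 and Kif20a pale or blue there.

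The 5 measured genes of mitotic entry followed the general shape closely. Ccna2 encodes cyclin A2, the partner of CDK2 and CDK1 in S phase and G2. It read 9.19, 9.17 and 9.16 in wild-type and 8.72, 10.41 and 7.55 in knockout whole leukemia, and 9.15, 9.54 and 9.34 in wild-type and 8.36, 9.68 and 7.48 in knockout L-GMP. In both fractions the knockout arrays thus lay on both sides of a tight wild-type group, with array 2 above all of it and arrays 1 and 3 below. The L-GMP difference was -0.84 (SE 0.66, n = 3 against 3, limma adjusted p = 1.00). Ccnb2 was similar, at 8.89, 10.22 and 7.86 in knockout whole leukemia against 9.36 to 9.40 in the wild type. Cdk1, the kinase itself, lay 1.15 below the wild-type mean on knockout whole leukemia array 3, at 7.54 against 8.69, and 0.92 below it on L-GMP array 3, at 7.94 against 8.86. Cdc25c, the phosphatase that activates CDK1, read 5.29 and 5.40 on those arrays against wild-type means of 6.76 and 6.81, and Foxm1, the transcription factor of the G2/M program, read 5.90 and 5.64 against 6.97 and 6.92.

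Of the mitotic kinases, Plk1, which drives centrosome maturation and mitotic exit, read 6.55 and 6.47 on the whole leukemia and L-GMP knockout arrays 3, against wild-type means of 7.73 and 7.82. Aurka, the spindle pole kinase, read 7.02 and 6.67 there against 7.58 and 7.76. On the knockout arrays 2 of those fractions Plk1 read 8.23 and 8.26 and Aurka 8.27 and 8.23, above the same means. Tpx2, which activates Aurora A on spindle microtubules, had the lowest p of the 3 genes. It read 7.54, 7.90 and 7.63 in wild-type and 7.84, 8.27 and 6.77 in knockout whole leukemia, and 7.74, 8.13 and 8.06 in wild-type and 7.45, 8.11 and 6.70 in knockout L-GMP. The genotypes overlapped in both fractions, and the L-GMP difference was -0.55 (SE 0.39, limma adjusted p = 1.00).

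The chromosomal passenger complex joins the kinase Aurora B to its scaffold INCENP and to survivin and borealin, encoded by Birc5 and Cdca8. Birc5 had one of the widest ranges of the 41 genes: 7.77, 9.43 and 6.01 in knockout whole leukemia against 7.14, 7.94 and 7.70 in the wild type. Incenp varied much less. It read 7.89, 7.54 and 7.49 in wild-type and 7.60, 8.33 and 6.92 in knockout whole leukemia, and 8.14, 7.80 and 7.76 in wild-type and 7.51, 7.95 and 7.49 in knockout L-GMP. Its L-GMP genotype difference was -0.25 (SE 0.30, limma adjusted p = 1.00), with overlapping arrays. Aurkb and Cdca8 read 6.85 and 6.61 on knockout whole leukemia array 3, below wild-type means of 8.22 and 7.67.

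At the centromere and kinetochore lay the deepest single value. Cenpe, the kinetochore kinesin that carries chromosomes to the spindle equator, read 6.72, 7.48 and 7.36 in wild-type and 7.20, 8.30 and 6.03 in knockout whole leukemia. In L-GMP it read 7.28, 7.59 and 7.76 in the wild type and 7.05, 7.88 and 5.0 in the knockout, so that array 3 alone lay 2.54 below the wild-type mean, at 5.0 against 7.55, while array 2 lay above all wild-type arrays. Its difference of -0.90 was the largest of the 41 in L-GMP and had an SE of 0.69 (limma adjusted p = 1.00). Nuf2 and Ndc80, partners in the complex that binds microtubules, read 6.23 and 6.65 on L-GMP array 3 against wild-type means of 8.33 and 8.03. Cenpa, the centromeric histone, read 6.54 there against 7.83, and Cenpf, a kinetochore protein, 6.02 against 7.33.

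The 4 spindle assembly checkpoint genes did not move alike on knockout whole leukemia array 2. They averaged 0.26 above the wild type on that array, while the other 8 roles averaged 0.59 to 1.07 above it. Bub1b, which encodes BubR1, read 7.56 on it, inside the wild-type range of 7.47 to 7.95, and Ttk, the MPS1 kinase, read 7.46 against 7.21 to 7.43. Mad2l1, which encodes MAD2, read 8.24 there against 7.47 to 7.56. Bub1b also had the smallest range over the 12 arrays, 1.03, and was the 1 gene not lowest on knockout L-GMP array 3, where it read 7.46 while wild-type array 1 read 7.32. Bub1, the kinase that recruits the checkpoint to kinetochores, read 6.75, 7.03 and 6.93 in wild-type and 7.07, 7.24 and 5.75 in knockout whole leukemia, and 6.85, 7.86 and 7.43 in wild-type and 6.82, 7.68 and 5.36 in knockout L-GMP, a difference of -0.76 (SE 0.55, limma adjusted p = 1.00) with knockout array 2 inside the wild-type range. Mad2l1 read 6.82 on L-GMP array 3 against a wild-type mean of 7.81.

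Among the spindle motors, Kif2c was the 1 gene of 41 with every knockout whole leukemia array below the wild type. That order was met by 5.73% of all genes, so the count was not above the share of all genes. Kif2c encodes MCAK, a kinesin that depolymerizes microtubules. In whole leukemia it read 6.85, 7.18 and 6.94 in the wild type and 6.75, 6.77 and 5.74 in the knockout, with all knockout arrays lower, and in L-GMP 6.93, 7.42 and 7.09 against 6.72, 7.01 and 5.30, where knockout array 2 lay inside the wild-type range. The difference over both fractions was -0.69 (SE 0.29, limma adjusted p = 0.629), the 1 of 41 with an unadjusted p under 0.05 in that comparison, in which 0.0338% of all genes were called and 7.72% reached that p. All 41 genes had a lower knockout mean over both fractions, with a median of -0.29, against 47.4% of all genes; without both knockout arrays numbered 3 the median was 0.14, with 5 of 41 lower, and without the whole leukemia one alone it was -0.05, with 26 of 41 lower. The count at an unadjusted p under 0.05 was 33 of 41 without both knockout arrays numbered 2, a choice made after seeing the data. It was 7 of 41 without the whole leukemia one alone and 15 of 41 with array weights, with 0 called in each. The shares of all genes at that p in these fits are not given, so the counts have no background beside them. Without knockout whole leukemia array 2 the median was -0.52. The comparison over both fractions counted their arrays as separate, with no block. Whether equally numbered arrays share an animal is not stated, so its p-values may be too small.

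Dlgap5 encodes HURP, which stabilizes kinetochore fibers. It read 8.24, 8.43 and 8.11 in wild-type and 7.66, 7.95 and 6.94 in knockout L-GMP, so that the highest knockout array lay below the lowest wild-type one, a difference of -0.74 (SE 0.36, limma adjusted p = 1.00). In whole leukemia the genotypes overlapped, at 7.76, 8.21 and 7.92 against 7.69, 8.94 and 7.48. Kif11, the motor that separates the spindle poles, had the deepest value of knockout whole leukemia array 3 against the wild type, 6.53 against 8.19. Nusap1, a microtubule-bundling protein, ranged from 5.93 to 9.19 over the knockout whole leukemia arrays and from 7.38 to 7.67 over the wild-type ones. Kif4, a chromokinesin, and Hmmr, a spindle assembly protein, read 5.73 and 5.92 on knockout whole leukemia array 3 against wild-type means of 6.75 and 6.95.

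Of the 5 genes of the midzone and cytokinesis, all had a lower knockout mean in L-GMP and 4 in whole leukemia. The exception was Prc1, which bundles midzone microtubules and read 7.48, 9.42 and 6.72 in knockout whole leukemia against 7.53, 7.73 and 7.83 in the wild type. Anln, a scaffold of the contractile ring, had the lowest p of the 5 genes in L-GMP: 7.45, 7.88 and 7.85 in the wild type and 7.63, 7.64 and 6.56 in the knockout, a difference of -0.45 (SE 0.35, limma adjusted p = 1.00) with knockout arrays 1 and 2 inside the wild-type range. In whole leukemia it read 7.59, 7.65 and 7.99 against 7.81, 8.15 and 6.89. Ect2, the exchange factor that activates RhoA at the cleavage furrow, read 5.86 and 6.27 on the knockout arrays 3 of whole leukemia and L-GMP against 7.14 and 7.57. The midzone kinesins Kif20a and Kif23 read 6.26 and 6.92 on L-GMP array 3 against 6.89 and 7.84.

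Smc4, an ATPase subunit of condensin, the complex that compacts mitotic chromosomes, had the lowest p of the 41 genes. In L-GMP it read 9.88, 10.22 and 10.08 in the wild type and 9.54, 9.76 and 8.86 in the knockout, with no overlap. The difference was -0.67 (SE 0.24, unadjusted p = 0.0182, limma adjusted p = 1.00). In whole leukemia the order turned: 9.48, 10.02 and 9.99 in the wild type against 10.09, 10.36 and 9.82 in the knockout, a difference of 0.26 (SE 0.24, limma adjusted p = 0.892) with overlapping arrays. Its condensin partner Smc2 had no such separation, at 8.96, 9.20 and 9.12 in wild-type and 8.72, 9.26 and 7.08 in knockout L-GMP. Mki67, the Ki-67 antigen of dividing cells, reached 11.18 on knockout whole leukemia array 2 and 7.83 on knockout L-GMP array 3, against 9.23 to 9.75 over the 6 wild-type arrays. Top2a, which untangles sister chromatids, read 7.32 and 7.26 on the knockout arrays 3 of whole leukemia and L-GMP, against wild-type means of 8.79 and 9.01.

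The anaphase genes held both the widest and 1 of the narrowest ranges of the 41 genes. Ube2c spanned 3.64 over the 12 arrays: 8.54, 9.38 and 9.53 in wild-type and 9.27, 11.17 and 7.52 in knockout whole leukemia, and 8.70, 9.52 and 9.52 in wild-type and 8.92, 9.75 and 7.62 in knockout L-GMP. Pttg1, the securin that holds separase inactive, spanned 1.18. It read 7.18, 7.38 and 7.16 in wild-type and 7.05, 7.55 and 6.95 in knockout whole leukemia, and 7.28, 7.41 and 7.12 in wild-type and 6.98, 7.28 and 6.37 in knockout L-GMP, a difference of -0.39 (SE 0.22, limma adjusted p = 1.00) with 1 knockout array inside the wild-type range. Cdc20, the activator of the anaphase-promoting complex, read 6.52 and 6.96 on the knockout arrays 3 of whole leukemia and L-GMP against 7.76 and 7.83. Cdca3, which promotes mitotic entry through WEE1 turnover, read 6.25 and 6.33 there against 7.34 and 7.48, and Espl1, separase itself, 5.57 and 5.82 against 6.32 and 6.60.

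Between the sorted fractions the genes lay slightly higher in L-GMP in the wild type. The L-GMP mean was higher for 38 of 41 genes, all but Ccnb2, Foxm1 and Anln, where 51.2% of all genes tested were lower; the median difference was 0.18, from -0.16 for Ccnb2 to 0.48 for Bub1. By limma 0 of 41 were called (0% of all genes), and 0 of 41 reached an unadjusted p under 0.05, against 2.5% of all genes. That fit shared its spread with the knockout arrays, where the median SD of these genes was 0.89 in whole leukemia and 0.87 in L-GMP. In the wild type these SDs were 0.17 and 0.30. With the wild-type groups alone in the fit, 2 of 41 had an unadjusted p under 0.05, with 0 called. For Ect2 and Smc2 all L-GMP arrays lay above all whole leukemia arrays, 2 of 41 genes against 4.89% of all genes: Ect2 read 7.19, 7.19 and 7.06 in whole leukemia and 7.62, 7.77 and 7.33 in L-GMP. Leaving out single wild-type L-GMP arrays moved the median from 0.07 without array 2 to 0.34 without array 1. With genotype and number as a fixed block, 3 of 41 had an unadjusted p under 0.05, with 0 called. The share of all genes at that p is not given for this fit or for that of the wild type alone.

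In the knockout the L-GMP mean was lower for 27 of 41 genes, against 47.6% of all genes, with a median of -0.13 and a range from -0.82 (Mki67) to 0.33 (Kif20a). Again 0 of 41 were called (0% of all genes), and 1 of 41, Smc4, had an unadjusted p under 0.05, against 7.39% of all genes. Smc4 was also the 1 gene of 41 with every L-GMP array below every whole leukemia array, against 4.66% of all genes (0 of 41 had the reverse order, against 5.49%), a difference of -0.70 (SE 0.24, limma adjusted p = 0.671). The median had no stable sign: it was 0.37 without knockout whole leukemia array 2, 0.33 without knockout L-GMP array 3, -0.61 without knockout whole leukemia array 3 and 0.45 with limma's array weights. With genotype and number as a fixed block, 10 of 41 had an unadjusted p under 0.05, with 0 called and the share of all genes not given. Over both genotypes the median was 0.04, with 15 of 41 genes lower in L-GMP, against 48.6% of all genes, 0 of 41 called (0% of all genes) and 0 of 41 at an unadjusted p under 0.05, against 7.52% of all genes. That median was 0.27 without knockout whole leukemia array 2 and 0.32 with array weights. It turned to -0.02 without wild-type whole leukemia array 1, -0.03 without wild-type L-GMP array 2, -0.19 without knockout L-GMP array 2 and -0.20 without knockout whole leukemia array 3.

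The genotype difference in L-GMP less that in whole leukemia was below 0 for 35 of 41 genes, against 45.2% of all genes, with a median of -0.32 and a range from -1.03 (Mki67) to 0.27 (Kif20a). None of the 41 was called by limma (0% of all genes), and 1 of 41, Smc4, had an unadjusted p under 0.05, against 2.06% of all genes. For Smc4 the value was -0.93 (SE 0.34, limma adjusted p = 1). The sign of the median turned when single arrays were left out: it was 0.18 without knockout whole leukemia array 2 and 0.05 without knockout L-GMP array 3, and 0.17 with array weights. With genotype and number as a fixed block, 7 of 41 had an unadjusted p under 0.05, with 0 called and the share of all genes not given.

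Other genes of the cell cycle were described from 6 lists, in which limma called 0 genes in any of the 7 comparisons and 0 to 4 genes of a list reached an unadjusted p under 0.05 in a comparison, against 2.06% to 7.72% of all genes. In L-GMP, where 45.2% of all genes were lower in the knockout, its mean was lower for 42 of 48 other G2/M and spindle genes (median -0.27), 13 of 14 condensin and cohesin partners (median -0.26), 31 of 38 G1/S and DNA replication genes (median -0.15), 10 of 15 subunits of the anaphase-promoting complex with Cdh1 (median -0.09), 12 of 15 G2 checkpoint genes and CDK inhibitors (median -0.13) and 8 of 22 regulators of G2/M transcription (median 0.05). On knockout array 3 the 41 genes lay farthest below the wild type of these lists. In L-GMP the list means of that array lay 1.33 below the wild type for the 41 genes, from 7.96 to 6.63, and differed from it by -0.90 for the other G2/M and spindle genes, -0.78 for condensin and cohesin partners, -0.55 for the G1/S and replication genes, -0.21 for the anaphase-promoting complex, -0.19 for the G2 checkpoint genes and CDK inhibitors and -0.09 for the regulators. In whole leukemia the same differences were -1.07, -0.79, -0.46, -0.48, -0.26, -0.04 and -0.17, while the mean of all genes tested differed by 0.01 and 0.00 in L-GMP and whole leukemia.

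Genes of these lists followed the array pattern to different extents. Kif15, a spindle kinesin picked after its values were seen, read 5.67 and 5.62 on the knockout arrays 3 of whole leukemia and L-GMP, against 7.41 to 8.03 over the 6 wild-type arrays. On knockout array 3, 43 of 48 other G2/M and spindle genes in L-GMP and 44 of 48 in whole leukemia lay below all wild-type arrays, against 21.8% and 24.9% of all genes. These counts were 13 and 11 of 14 for condensin and cohesin partners, and 6 and 10 of 15 for the anaphase-promoting complex with Cdh1. They were 9 and 12 of 22 for the regulators of G2/M transcription, and 5 and 5 of 15 for the G2 checkpoint genes and CDK inhibitors. For the G1/S and replication genes these counts were 31 and 28 of 38. Knockout whole leukemia array 2 lay 0.10 above the wild-type mean for the G1/S and replication genes, 0.82 for the 41 genes, 0.57 for the other G2/M and spindle genes and 0.61 for the regulators of G2/M transcription. On it 38 of 41 genes and 35 of 48 other G2/M and spindle genes lay above all wild-type whole leukemia arrays. For the regulators the count was 14 of 22 and for the G1/S and replication genes 15 of 38, against 30.9% of all genes. Among those regulators, chosen after their values were seen, E2f2 read 9.13 on that array and 5.37 to 6.57 on the other 11, and Tfdp2 read 9.62 there and 5.84 to 7.49 on the other 11.

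**Figure D5:**
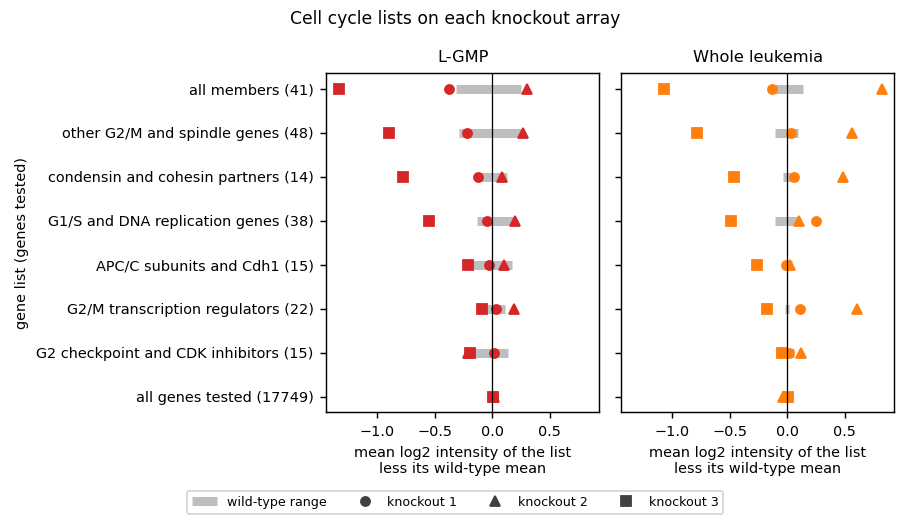
Mean log2 intensity of each gene list on each knockout array less the mean of the 3 wild-type arrays of the same fraction (points), with the range of the wild-type arrays (grey bars), in L-GMP (left) and whole leukemia (right). Array 3 (squares) lies lowest for the 41 genes, at -1.33 and -1.07, and is at -0.26 to -0.04 for the anaphase-promoting complex, G2 checkpoint and regulator lists in whole leukemia; array 2 (triangles) lies highest in whole leukemia for the 41 genes and at 0.10 for the G1/S and replication genes.

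Markers of other cells also varied over the knockout arrays. The 10 tested of 19 erythroid markers averaged 9.06 on knockout whole leukemia array 2 and 5.27 to 6.06 on the other 11 arrays. The 12 neutrophil markers averaged 11.4 on that array and 6.39 to 9.98 on the others, and the 9 tested of 14 eosinophil, basophil and mast cell markers averaged 7.62 on knockout L-GMP array 2 and 5.50 to 6.48 on the others. The knockout arrays 3 of whole leukemia and L-GMP read 6.05 and 5.56 for the erythroid list, 9.96 and 7.37 for the neutrophil list and 5.96 and 5.80 for the eosinophil, basophil and mast cell list. The wild-type arrays of those fractions read 5.27 to 5.36 and 5.28 to 5.40, 7.51 to 9.98 and 6.39 to 8.48, and 5.52 to 5.71 and 5.65 to 5.88. Knockout whole leukemia array 3 was thus above all wild-type arrays for the erythroid and the eosinophil, basophil and mast cell lists, and knockout L-GMP array 3 for the erythroid list. The 12 tested of 14 monocyte and macrophage markers averaged 8.15 and 7.35 on them, against 8.52 to 9.03 and 7.60 to 8.76 in the wild type and 7.36 to 7.68 and 7.39 to 7.74 on the other knockout arrays. The 7 tested T and NK cell markers averaged 5.30 to 6.02 on the knockout and 4.98 to 5.28 on the wild-type arrays. Their median knockout minus wild-type difference was only 0.06 in L-GMP and 0.11 in whole leukemia, with 5 higher and 2 lower in each. The averages of that list therefore do not describe its typical marker. The 6 tested B cell markers averaged 5.34 to 5.71 on all 12 arrays. The part of these markers in the levels of the G2/M and mitosis genes was not tested.

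The promoter letters did not separate the genes by their level on the knockout arrays 3. In L-GMP the median difference from the wild-type mean on array 3 was -1.33 for the 25 measured genes with a CHR, -1.38 for the 7 without one and -1.27 for the 9 with no promoter entry. In whole leukemia the medians were -1.06, -1.15 and -1.04. On knockout whole leukemia array 2 they were 0.83, 0.72 and 0.58. The 7 genes without a CHR in the window were Birc5, Cenpe, Nuf2, Bub1, Mad2l1, Nusap1 and Pttg1.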

How the data were processed

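The authors deposited 1 linear intensity per probe set for each of 12 one-colour arrays, hybridized with NuGEN-amplified RNA per the labels' protocols. How they corrected background and normalized is not given in the sources used here. They were taken to log2 with no pseudocount and no rescaling. Of 33794 probe sets, 23521 had 1 gene symbol in the platform annotation, 1814 several and 8459 none listed. Genes whose mean lay in the lowest 25% of probe sets (log2 4.72) were left out, 4431 of 22180. limma 3.58.1 under R 4.3.3 compared the groups (lmFit and eBayes, 1 mean per group over all 12 arrays, 8 residual and 2.36 prior degrees of freedom) in 7 comparisons, with Benjamini-Hochberg adjustment over 17749 genes at 0.05. The fit was also run on simulated data with independent arrays and the same spread in all groups. That run cannot show how the fit behaves with the unequal spread of these genes. With 3 arrays a group, their number limits the precision.

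The genes, the lists and the tests were chosen with earlier results of these data known. Array values are given for called genes and, in each of 9 roles, for the gene of lowest p in at least 1 comparison; array values of further genes (such as Ube2c, Birc5, Prc1, Smc2, Ect2 and Mki67) were added after they were seen. All 41 measured genes matched GRCm38.p6 RefSeq records by gene identifier. Equal replicate numbers were checked by the correlation of deviations from group means between fractions: 0.36, 0.62 and 0.30 in the wild type, and 0.13, 0.09 and 0.43 in the knockout, so the numbers pair arrays by the rule used here (over 0.1 in each pair) only in the wild type, and the fit has no block. Alternatives were normalization, dim filter, array weights, variance, samples fitted, probe set rule, blocks and arrays left out.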

Additional observations from a re-analysis of the deposited data

Results flagged for a closer look

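For Smc4 and Dlgap5 the fractions lay on opposite sides in the 2 genotypes: all 3 wild-type L-GMP arrays lay above the wild-type whole leukemia mean, and all 3 knockout L-GMP arrays below the knockout whole leukemia mean. The L-GMP difference in the knockout less that in the wild type was -0.93 for Smc4 (SE 0.34, limma adjusted p = 1) and -0.81 for Dlgap5 (SE 0.51, limma adjusted p = 1). For Dlgap5 the arrangement rests on knockout whole leukemia array 2, at 8.94: the other arrays of that group read 7.69 and 7.48, and knockout L-GMP array 2 read 7.95. For Smc4 every knockout L-GMP array, 8.86 to 9.76, lay below every knockout whole leukemia array, 9.82 to 10.36. These were 2 of 41 genes, a count near the share of all genes tested with such an arrangement, 4.28%. The same arrangement of the genotypes, with the knockout arrays on opposite sides of the wild type in the 2 fractions, was met by 0 of 41 genes and by 3.95% of all genes.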

How the results depend on the processing

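Over 162 alternative fits of the 7 comparisons, the count of called genes among the 41 was above 0 in 0, and the lowest adjusted p of any of the 41 was 0.223 (limma). Leaving out 1 array turned the sign of 4 of the 7 medians and of none of the other 3 (genotypes in L-GMP, genotypes over both fractions, fractions in the wild type). Over the 12 settings with 1 array left out, the median genotype difference ranged from -0.87 to -0.01 in L-GMP, -0.64 to 0.35 in whole leukemia and -0.52 to -0.05 over both; that between fractions from 0.07 to 0.34 in the wild type, -0.61 to 0.37 in the knockout and -0.20 to 0.27 over both; and the interaction from -0.81 to 0.18. Without both knockout arrays numbered 2, a choice made after seeing the data like that of leaving out those numbered 3, the median over both fractions was -0.74. With array weights the medians were -0.65 for the genotypes in whole leukemia and 0.32 between fractions over both genotypes. A replicate block left 0 of 41 genes called and the median in L-GMP at -0.45; with genotype and number as a random block the consensus correlation was 0.15. The fixed block of genotype and number could not be fitted for genotype differences, and fitting the compared groups alone was not possible for the 3 comparisons that use all 4. Before the start only, a CHR was found in 36.4% and a CHR with a CCAAT box in 33.3% of genes.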

Other observations

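The values of 4 further regulators of the cycle follow, all picked after their values were seen. Cdkn2c, which encodes the CDK4 and CDK6 inhibitor p18, read 7.39 on knockout L-GMP array 2 and 8.62 to 9.58 on the other 11 arrays. Rb1, the retinoblastoma gene, read 10.08 on knockout whole leukemia array 2 and 7.43 to 8.31 on the other 11. Fzr1, which encodes the anaphase-promoting complex activator CDH1, read 9.07 on that array and 6.99 to 7.78 on the other 11. Mybl2, which encodes B-MYB, read 7.42 and 7.08 on the knockout arrays 3 of whole leukemia and L-GMP, against 7.15 to 7.43 and 7.29 to 7.70 in the wild type.

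The wild-type arrays had an order of their own in both fractions, narrower than that of the knockout. Averaged over the 41 genes, arrays 1, 2 and 3 read 7.61, 7.91 and 7.80 in whole leukemia and 7.65, 8.21 and 8.03 in L-GMP. Taken array by array, the L-GMP minus whole leukemia difference of the 41 genes had a median of 0.02 for number 1, 0.31 for number 2 and 0.25 for number 3, with 19, 2 and 6 of 41 genes below 0.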
